A study of Mus musculus with 24 samples.

Results

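Clec3b and Myoc are the pair of genes described here, 2 of the 24825 genes listed in each library and 2 of the 12640 that passed the filter on low values. They were chosen by their level at day 0, which was far higher in cells with the full-length NFIA transgene than in cells labelled Cre. Levels are in FPKM, the number of fragments counted for a gene, divided by its length in kilobases and scaled to a library of 1000000 fragments. For these 2 genes, levels and differences of those day 0 libraries are therefore a description and were not tested.

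The cells were an immortalised stromal vascular fraction of inguinal white adipose tissue (ingSVF), a mixed preparation that holds adipocyte precursors, from Nfia flox/flox mice whose exon 2 of Nfia lies between loxP sites. All groups shared the floxed allele and SV40 large T antigen. The ctrl cells received an empty retroviral vector, and the Cre cells received a retroviral vector for Cre recombinase. Cre + NFIA cells also received full-length NFIA with a FLAG tag. The tagged NFIA of Cre + NFIA Δpro#3 cells lacked only the pro#3 part, at the very end of the C-terminal proline-rich domain. Each came from a pMXs retroviral vector and was thus not under the promoter of Nfia itself. Each of the 4 cell types was sampled in 3 replicates at day 0, before treatment, and at day 7 of thermogenic adipocyte differentiation. The differentiation medium held isobutylmethylxanthine, indomethacin, dexamethasone, insulin, T3 and rosiglitazone, and then insulin, T3 and rosiglitazone. The sources do not say whether replicates were separate cultures, so p-values measure the spread between these libraries, which may be technical.

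NFIA belongs to the nuclear factor I family of transcription factors, which binds a palindromic DNA site as a dimer and is known in adipose tissue for its part in the brown adipocyte gene program. Clec3b encodes tetranectin, a secreted protein with a C-type lectin domain that binds a kringle domain of plasminogen and is made by many stromal cells. Myoc encodes myocilin, a secreted glycoprotein with an olfactomedin domain that is best known from the trabecular meshwork of the eye, where glucocorticoids induce it. Neither gene is a classical adipocyte marker.

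In mm9 (NCBIM37) with GENCODE vM1, Clec3b lies on chromosome 9 from 123060064 to 123066548 on the plus strand. It has 3 exons, 990 exonic bases and 606 coding bases. Myoc lies on chromosome 1 from 164569281 to 164579824 on the plus strand, with 3 exons, 2079 exonic bases and 1470 coding bases. The antisense gene 7420461P10Rik overlaps the span of Myoc, and the authors counted reads on the matching strand. A RefSeq promoter window was at hand for 1 of the 2 genes, Myoc. It is shown because Myoc had 56 reads or fewer in 7 of the 8 groups and 612 in the remaining group. The window lies at chr1:162638900-162639199 on the plus strand of GRCm38.p6, a later build than that of the expression files, and runs 5′ to 3′ across the annotated start site. Capitals mark a TATAAA match on the gene strand.
Myoc: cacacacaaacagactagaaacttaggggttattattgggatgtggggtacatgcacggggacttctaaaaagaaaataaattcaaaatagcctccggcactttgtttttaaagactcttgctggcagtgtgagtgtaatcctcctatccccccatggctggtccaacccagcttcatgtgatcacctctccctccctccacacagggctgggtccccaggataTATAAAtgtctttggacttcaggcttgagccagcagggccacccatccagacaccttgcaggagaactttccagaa

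The TATAAA match starts 26 bases upstream of the start site, at position -26. The same letters occurred in 8.32% of the 32851 mouse promoter windows of this length. The nuclear factor I full site, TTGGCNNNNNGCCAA on both strands, was not found in the Myoc window, nor with 1 mismatch allowed. It occurred in 0.0365% of all windows exactly and in 0.907% with 1 mismatch. Its single arm TTGGC, which is part of the full site, was also not found in Myoc and occurred in 46.7% of all windows. The glucocorticoid receptor palindrome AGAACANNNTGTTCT and its single arm AGAACA were not found in Myoc either, and were in 0.00913% and 19.0% of all windows. These searches cover the letters of this window and say nothing of sites elsewhere.

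Library totals were 7.73 to 14.62 M reads (M, 1000000), so that 3 reads, the smallest level taken as shown, stood for 0.205 to 0.388 reads per 1000000 (RPM). Intervals and floors on reads cover counting error only. Gene-level Nfia was 6.23 to 6.75 FPKM in day 0 ctrl and 5.34 to 6.81 FPKM in day 0 libraries labelled Cre, so it did not fall there. It does not check the Cre label, since the floxed exon is only part of the gene, and directions given for Cre rest on the label. Nfia reads, transgene included, stood at 69.7 to 74.9 FPKM in day 0 Cre + NFIA and 59.7 to 61.7 FPKM in day 0 Cre + NFIA Δpro#3. Stromal markers (7 genes, Col1a1 the highest) summed to 1338 to 2455 FPKM over the day 0 libraries. Of 5 immune markers, Adgre1 and Cd3e had 0 reads in every day 0 group and 2 were tested, with a summed level of 5.896 to 7.278 FPKM in Cre + NFIA and 6.561 to 8.239 FPKM in Cre. Of 5 endothelial markers Tie1 was at 0 in every group, and the summed level was 3.135 to 3.853 FPKM in Cre + NFIA and 3.190 to 3.323 FPKM in Cre + NFIA Δpro#3 against 0.9651 to 1.146 FPKM in Cre and 0.6985 to 1.317 FPKM in ctrl, most of it from Kdr, a receptor of vascular endothelial growth factor. Their part in the levels of Clec3b and Myoc was not tested.

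On the main log2 scale, given below, Clec3b was the gene of the tested 12640 with the largest rise from Cre to Cre + NFIA at day 0. Myoc was the next on that scale. The order of the pair depends on the setting. With a pseudocount of 0.1 the log2 difference was 6.59 for Myoc and 3.78 for Clec3b. With limma voom it was 8.41 for Myoc and 3.83 for Clec3b. With a pseudocount of 5 it was 1.54 for Myoc and 2.89 for Clec3b. The remaining settings with values for both genes kept Clec3b above Myoc. The Cre + NFIA replicates held 69.4, 78.6 and 68.5 FPKM of Clec3b. The replicates labelled Cre held 3.67, 9.26 and 4.04 FPKM, and those of Cre + NFIA Δpro#3 held 4.20, 5.17 and 5.05 FPKM. In ctrl the 3 values were 10.2, 12.3 and 11.5 FPKM. Every Cre + NFIA library therefore stood far above every other day 0 library, and the libraries of Cre and of Cre + NFIA Δpro#3 overlapped. The mean of 72.2 ± 5.60 FPKM (SD, n = 3) in Cre + NFIA was 12.8-fold that of Cre, 15.01-fold that of Cre + NFIA Δpro#3 and 6.36-fold that of ctrl. With this level Clec3b was above 92.3% of tested genes, against 35.4% in Cre and 52.7% in ctrl.

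Replicate 2 of day 0 Cre stood apart for Clec3b, at 9.26 FPKM and 71 reads, beside 37 and 32 reads in the other replicates. Log2 differences below are on the log2(FPKM + 1) scale unless another setting is named, which understates the change of low genes. Other folds are ratios of mean FPKM or of pooled RPM. On the log2 scale Cre + NFIA was 3.55 above Cre with this library and 3.91 above it without. The difference between Cre + NFIA Δpro#3 and Cre was -0.10 with it and 0.26 without, so the sign turned with 1 library. Cre lay below ctrl by either set, with a difference of -0.98 with it and -1.34 without.

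Myoc was close to undetected in the day 0 groups other than Cre + NFIA. The Cre + NFIA replicates held 8.25, 10.2 and 10.3 FPKM, from 183, 200 and 229 reads. All 3 libraries labelled Cre had 0 reads. The ctrl replicates had 1, 0 and 4 reads, and those of Cre + NFIA Δpro#3 had 0, 0 and 2. No library outside Cre + NFIA exceeded 0.147 FPKM at day 0, which is near the 3-read floor of 0.110 to 0.187 FPKM. The Cre + NFIA mean of 9.57 ± 1.14 FPKM (SD, n = 3) was at least 56.4-fold higher than Cre, taken against 3 reads per library. By pooled RPM it was 146-fold that of ctrl (exact 95% interval 62.3 to 452), but this turned on single libraries, with 471 (84.3 to 18650) without ctrl replicate 3 and 96.8 (41.2 to 299) without ctrl replicate 2. It was 373-fold that of Cre + NFIA Δpro#3 (103 to 3083), whose reads were all in replicate 3, and at least 82.1-fold higher without that library, taken against 3 reads per library. Even so, Myoc reached only a middle level, above 47.6% of tested genes and well under the 72.2 FPKM of Clec3b on the same per-length scale.

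**Figure D1:**
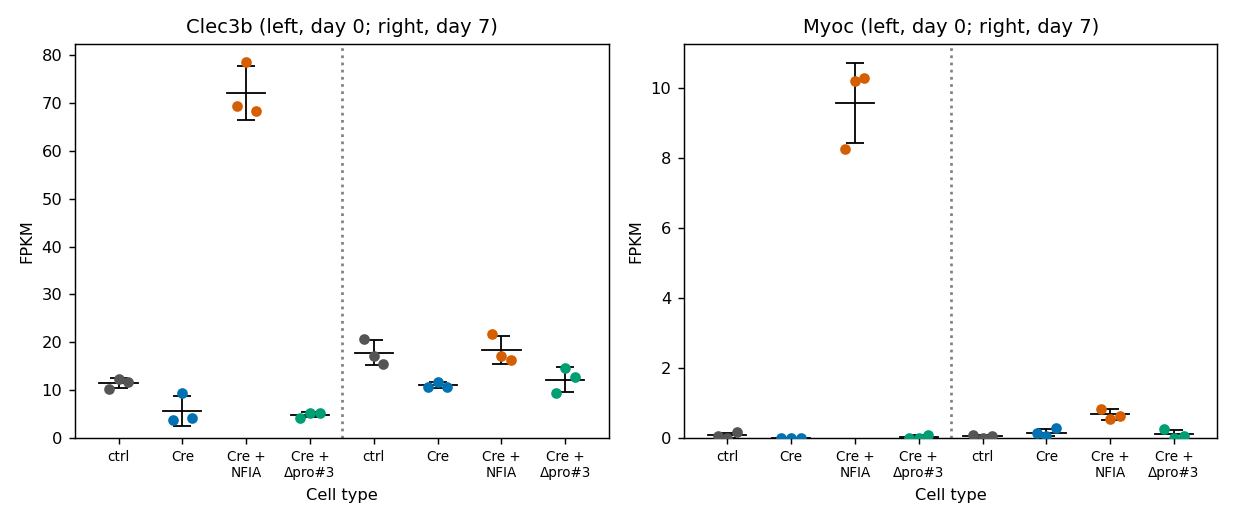
FPKM of Clec3b and Myoc in each of the 24 libraries (points) by cell type, day 0 left and day 7 right of the dotted line. Horizontal bars are group means and error bars are SD to each side of the mean, cut where the axis starts at 0. Day 0 Cre + NFIA stands above all other groups for both genes, at 72.2 FPKM for Clec3b and 9.57 FPKM for Myoc, with different axis ranges for the 2 genes.

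The genes just after the pair in this ranking, given as a description, were Bmp4, a secreted bone morphogenetic protein, with a log2 difference of 3.36, Nfia itself with 3.35 and Comp, a cartilage matrix protein, with 2.88. The differences of Clec3b and Myoc were 3.55 and 3.40. Of all tested genes, 0.372% were called higher in this contrast, that is, at 3-fold or more with an adjusted p below 0.05. From Cre + NFIA to Cre + NFIA Δpro#3 the fall was 3.66 for Clec3b and 3.36 for Myoc on the main log2 scale. These were the largest and the next largest of all tested genes on that scale. The order of the pair depends on the setting here too. The differences of Clec3b and Myoc were -3.88 and -6.32 with a pseudocount of 0.1 and -3.90 and -8.17 with limma voom. With a pseudocount of 5 they were -2.97 and -1.53. That contrast shares its Cre + NFIA libraries with the choice of the genes. Adipocyte markers (6 genes, 5 of them tested) also differed, with a summed level of 46.9 to 47.5 FPKM in Cre + NFIA, 22.8 to 30.7 FPKM in Cre and 30.8 to 40.1 FPKM in Cre + NFIA Δpro#3. Lep was at 0 reads in Cre and in Cre + NFIA Δpro#3. The members did not move as 1. The highest was Cebpa in Cre + NFIA, at 20.6 FPKM, but Fabp4 in Cre and in Cre + NFIA Δpro#3, at 13.6 and 26.3 FPKM. Fabp4 was thus lower in Cre + NFIA than in the mutant. The stromal sum was 1338 to 1456 FPKM with the NFIA transgene and 1835 to 2417 FPKM with Cre alone. Col1a1 led it, at 671 and 1153 FPKM. Its member Pdgfra went the other way, at 94.8 ± 5.45 and 74.1 ± 4.02 FPKM. The part of these cell states in the levels of Clec3b and Myoc was not tested. In bulk RNA fewer cells of a type and less RNA per cell cannot be told apart.

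Comparisons between groups other than day 0 Cre and day 0 Cre + NFIA were tested. Where a comparison included a day 0 group, its spread was estimated with those day 0 libraries too. Myoc passed the filter, an FPKM of 1 in 3 libraries, through the day 0 Cre + NFIA libraries alone, since its highest value elsewhere was 0.823 FPKM. Of the day 0 comparisons, only Cre + NFIA Δpro#3 against ctrl was left to test. Clec3b fell from 11.3 ± 1.07 to 4.81 ± 0.526 FPKM (SD, n = 3 each), and the groups did not overlap. The log2 difference was -1.09 (SE 0.238, limma adjusted p = 0.00615), where 13.2% of tested genes passed the adjusted p in this direction. Myoc, with 5 reads in ctrl and 2 in the mutant cells over 3 libraries each, differed by -0.05 (95% interval of the difference -0.247 to 0.144, limma adjusted p = 0.701).

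At day 7 the levels of Clec3b lay in a much narrower range. The Cre + NFIA replicates held 21.7, 17.1 and 16.2 FPKM. The ctrl replicates held 20.7, 17.1 and 15.5 FPKM, and those labelled Cre held 10.6, 11.7 and 10.7 FPKM. Those of Cre + NFIA Δpro#3 held 9.24, 14.6 and 12.6 FPKM. Cre + NFIA and ctrl thus shared 1 range and stood above both other groups, which overlapped with each other.

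Clec3b fell from 17.8 ± 2.66 FPKM in ctrl to 10.98 ± 0.602 FPKM in libraries labelled Cre at day 7 (log2 difference -0.64, SE 0.152, limma adjusted p = 0.00335). In that comparison 22.7% of tested genes passed in the same direction. It was higher in Cre + NFIA, at 18.3 ± 2.93 FPKM, than in Cre (log2 difference 0.68, SE 0.152, limma adjusted p = 0.00194), with a background of 27% of tested genes. The means were 1.67-fold apart, compared with 12.8-fold at day 0. Cre + NFIA Δpro#3, at 12.2 ± 2.70 FPKM, did not pass the test against Cre (difference 0.11, 95% interval -0.218 to 0.447, limma adjusted p = 0.662). It was below Cre + NFIA by a log2 difference of -0.57 (SE 0.152, limma adjusted p = 0.00546), where 28.9% of tested genes passed in this direction. Cre + NFIA and ctrl differed by 0.04, with a 95% interval of -0.290 to 0.376 (limma adjusted p = 0.883). The mutant cells were also below ctrl, by -0.52 (SE 0.152, limma adjusted p = 0.00913, background 25.4%). In terms of size, no tested difference of Clec3b reached 3-fold on this scale.

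Myoc at day 7 was again highest in Cre + NFIA, but at a far lower level than at day 0. The Cre + NFIA replicates held 0.823, 0.540 and 0.625 FPKM, from 23, 14 and 19 reads. The replicates labelled Cre had 3, 1 and 6 reads, those of ctrl 2, 0 and 1, and those of Cre + NFIA Δpro#3 6, 0 and 1. All Cre + NFIA libraries stood above every other day 7 library. The other 3 groups overlapped, with no value above 0.261 FPKM.

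Cre + NFIA exceeded Cre in Myoc by a log2 difference of 0.54 (SE 0.129, limma adjusted p = 0.00309), and the ratio of pooled RPM was 4.45 (exact 95% interval 2.25 to 9.78), or 7.31 (2.70 to 27.8) without Cre replicate 3. It exceeded ctrl by 0.68 (SE 0.129, limma adjusted p = 0.00409), where 8.81% of tested genes passed in this direction. Here the pooled ratio was 16.99 (5.52 to 84.9), from 56 reads against 3, or 34.01 (5.86 to 1367) without ctrl replicate 1. Cre + NFIA Δpro#3 was below Cre + NFIA by a difference of -0.61 (SE 0.129, limma adjusted p = 0.00119), with a pooled ratio of full-length to mutant of 7.20 (3.27 to 18.7). Replicate 1 held 6 of the 7 mutant reads, and without it the ratio was 34.3 (5.90 to 1377). Libraries labelled Cre and ctrl differed by 0.14 (95% interval -0.144 to 0.421, limma adjusted p = 0.379). The mutant did not pass against Cre (-0.07, limma adjusted p = 0.773) or against ctrl (0.07, limma adjusted p = 0.641). The groups other than Cre + NFIA hold 10 reads or fewer each, so differences among them were not detectable at this depth. With pseudocounts of 0.1, and with limma voom on the recovered reads, all 3 differences that passed were also beyond 3-fold. In the other settings none was. The smallest were 0.14 against Cre, 0.17 against ctrl and -0.15 for Cre + NFIA Δpro#3 against Cre + NFIA, and all still passed the adjusted p. The size of these differences thus depends on the setting.

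**Figure D2:**
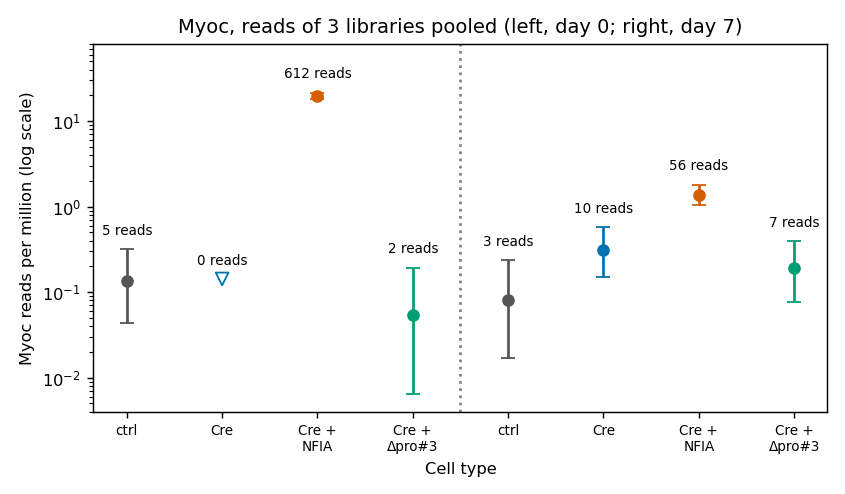
Myoc RPM, pooled over the 3 libraries of each group (points, log axis) with exact 95% counting intervals, and the number of reads above each. The open triangle is the upper limit of day 0 Cre, which had 0 reads, and Cre + NFIA stands highest at both days with 612 and 56 reads.

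Adipocyte markers differed widely between these day 7 groups, with a summed level of 17000 to 17170 FPKM in Cre + NFIA and 18150 to 21240 FPKM in ctrl. It was 3415 to 7612 FPKM in Cre and 584.9 to 1617 FPKM in Cre + NFIA Δpro#3. Stromal markers ran the other way, at 539.0 to 618.8 and 808.2 to 892.3 FPKM in the former groups and 1420 to 1719 and 1549 to 1859 FPKM in the latter. Clec3b was higher in Cre + NFIA and ctrl, which had more adipocyte marker RNA, than in Cre and Cre + NFIA Δpro#3. Between Cre and Cre + NFIA Δpro#3 the adipocyte marker sums did not overlap, but Clec3b did, at means of 10.98 and 12.2 FPKM. Myoc was higher in Cre + NFIA than in ctrl, which held about as much adipocyte marker RNA. Whether these markers have a part in either pattern was not tested.

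**Figure D3:**
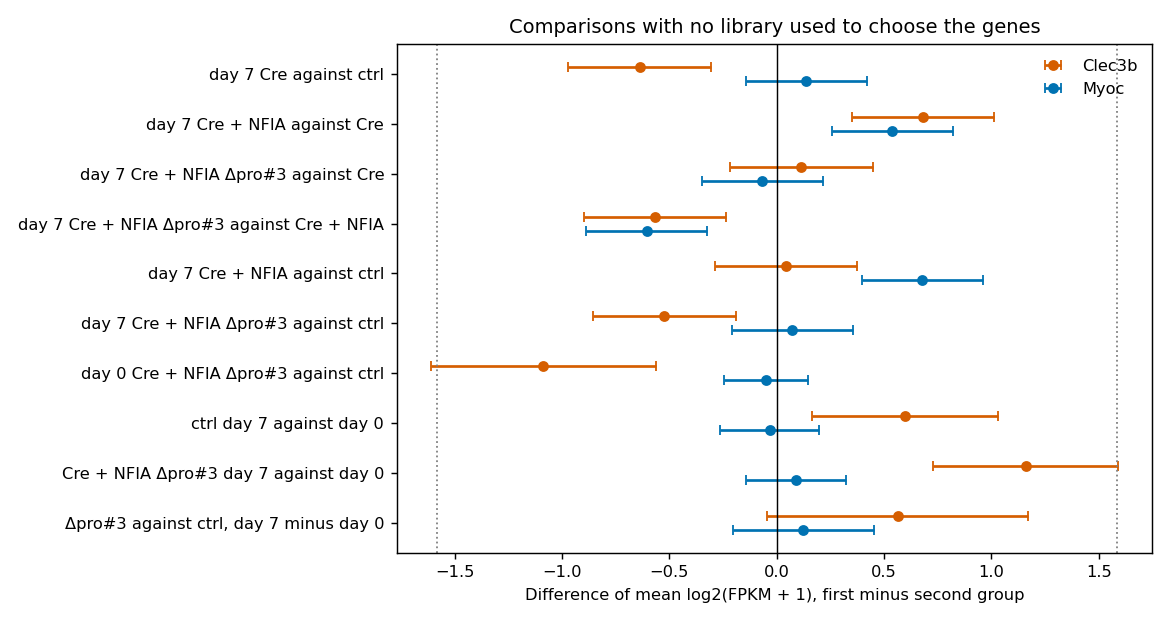
Differences of mean log2(FPKM + 1) for Clec3b and Myoc in the 10 tested comparisons, points with 95% intervals from limma and dotted lines at 3-fold. Clec3b spans -1.09 to 1.16 and Myoc -0.61 to 0.68, and no point lies beyond a dotted line.

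Between day 0 and day 7 the Cre + NFIA group moved opposite to the other groups for Clec3b. In ctrl it rose from 11.3 to 17.8 FPKM, with no overlap (log2 difference 0.60, SE 0.207, limma adjusted p = 0.0141). Of tested genes, 32.9% passed in that direction. Without replicate 1 of day 0 ctrl, or replicate 1 of day 7 ctrl, this no longer passed (0.53, limma adjusted p = 0.053, and 0.49, limma adjusted p = 0.0675). In Cre + NFIA Δpro#3 it rose from 4.81 to 12.2 FPKM (1.16, SE 0.207, limma adjusted p = 0.000119, background 24.5%). The rise in the mutant cells exceeded that of ctrl by 0.56 (SE 0.293, limma adjusted p = 0.1), which did not pass. As a description, libraries labelled Cre went from 5.65 to 10.98 FPKM and Cre + NFIA from 72.2 to 18.3 FPKM, a 3.93-fold fall.

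Myoc fell from 9.57 to 0.663 FPKM in Cre + NFIA, again as a description, by 14.4-fold in pooled RPM (exact 95% interval 10.9 to 19.3). It went from 0 to 10 reads in libraries labelled Cre. In ctrl the difference between days was -0.03 (limma adjusted p = 0.798), in Cre + NFIA Δpro#3 it was 0.09 (limma adjusted p = 0.556), and the difference between these was 0.12 (SE 0.158, limma adjusted p = 0.514). In the day 7 Cre + NFIA cells Myoc was above just 4.98% of tested genes.

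Over all 8 groups the order of Clec3b was day 0 Cre + NFIA (72.2 FPKM), day 7 Cre + NFIA (18.3), day 7 ctrl (17.8), day 7 Cre + NFIA Δpro#3 (12.2), day 0 ctrl (11.3), day 7 Cre (10.98), day 0 Cre (5.65) and day 0 Cre + NFIA Δpro#3 (4.81 FPKM). Neighbours in this order overlapped except for day 0 against day 7 Cre + NFIA, day 7 ctrl against day 7 Cre + NFIA Δpro#3, and day 7 against day 0 Cre. The order of Myoc was day 0 Cre + NFIA (9.57 FPKM), day 7 Cre + NFIA (0.663), day 7 Cre (0.145), day 7 Cre + NFIA Δpro#3 (0.0950), day 0 ctrl (0.0632), day 7 ctrl (0.0375), day 0 Cre + NFIA Δpro#3 (0.0251) and day 0 Cre (0 FPKM). From day 7 Cre downward all neighbours overlapped.

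The genes with the most similar pattern were found by Pearson's r over the 24 libraries on the log2(FPKM + 1) scale, a description since libraries of a group share their cells. Among the 8 nearest to Clec3b were Myoc (r = 0.854, rank 2), Comp (0.830), the scaffold Slc9a3r1 (0.823), the secreted chaperone clusterin, Clu (0.823), Bmp4 (0.809), Eva1c (0.803) and Tmem176b (0.803). Among the 8 nearest to Myoc were Comp (0.964), Bmp4 (0.959), Rasgrp3 (0.924), a guanine nucleotide exchange factor, Slc9a3r1 (0.903), Cdhr1 (0.903), Tmem176b (0.893) and the junction protein Plekha7 (0.885). Clec3b itself was at rank 11 for Myoc.

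The likeness rested largely on day 0. Between Clec3b and Myoc Spearman's rho was 0.626, and r was 0.946 over the 12 day 0 libraries, 0.329 over the 12 of day 7 and 0.491 without the 3 libraries of day 0 Cre + NFIA. Clu kept the closest tie to Clec3b of the genes named at day 7 (r = 0.738), where Cre + NFIA held 7.23 ± 0.575 FPKM of it and libraries labelled Cre held 2.33 ± 0.543 FPKM. Eva1c (-0.591), Tmem176b (-0.314) and Slc9a3r1 (-0.300) ran opposite to Clec3b at day 7. Of the genes named for Myoc, r at day 7 ran from 0.192 for Tmem176b to 0.887 for Bmp4. The level of Bmp4 in Cre + NFIA was 12.8 ± 1.24 FPKM at day 0 and 2.39 ± 0.344 FPKM at day 7, and it was at most 0.562 FPKM in any library of the other 6 groups. Comp was at 7.69 ± 0.569 and 1.21 ± 0.571 FPKM in Cre + NFIA at day 0 and day 7.

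**Figure D4:**
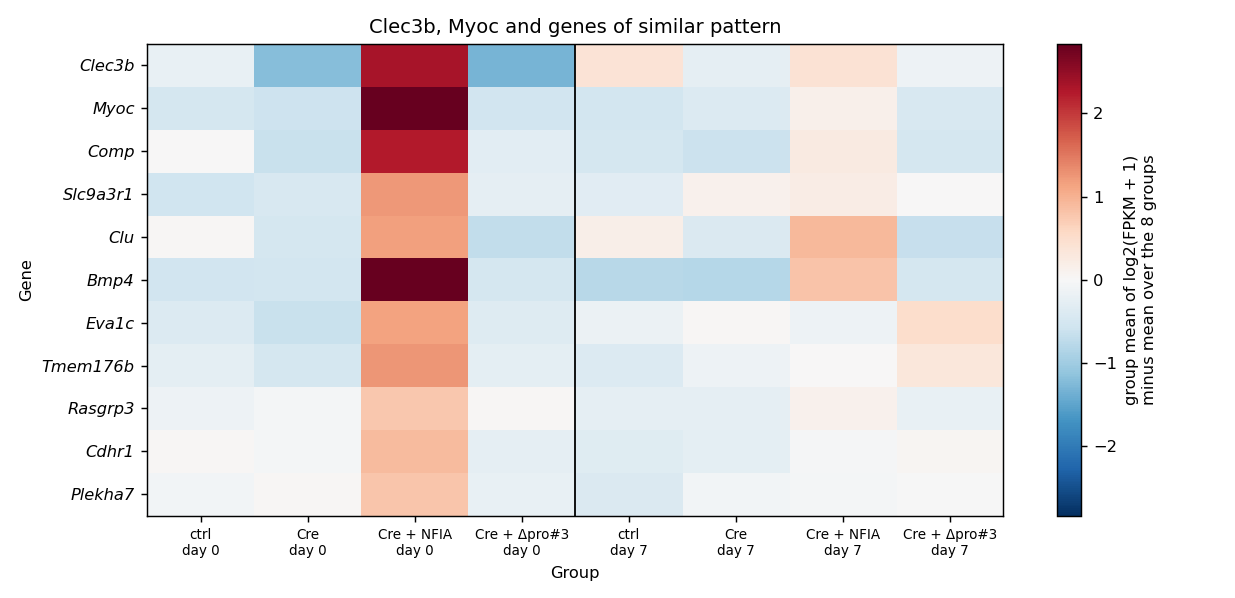
Group means of log2(FPKM + 1) minus the mean over the 8 groups (color) for Clec3b, Myoc and genes among the 8 most like each, with day 0 left and day 7 right of the line. Day 0 Cre + NFIA is the highest group for each gene, while day 7 differs between genes, with Clu and Bmp4 high in Cre + NFIA.

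Of the plasminogen system, the pathway to which tetranectin binds, 12 of 16 listed genes were tested. Plasminogen itself, Plg, was under the filter, and so was the enolase Eno1, which has near-identical copies. At day 0 in Cre + NFIA against Cre, 5 of the 12 rose and 3 fell, where 14.7% and 12.9% of all tested genes passed the adjusted p. Plaur, the receptor of urokinase, rose from 10.4 ± 1.52 to 17.5 ± 2.40 FPKM (log2 difference 0.70, limma adjusted p = 0.00176). Anxa2, a cell-surface receptor of plasminogen with S100a10, rose from 421 ± 7.05 to 621 ± 27.2 FPKM (0.56, limma adjusted p = 1.64e-05). The activators fell, Plat by 0.84 (limma adjusted p = 2.65e-07) and Plau by 0.60 (limma adjusted p = 0.000552) on the log2 scale. The inhibitor Serpine2 rose by 0.72 (limma adjusted p = 3.75e-05). The list's median difference was 0.198, against 0.0191 for all tested genes.

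At day 7 in Cre + NFIA against Cre, 4 of the 12 plasminogen genes rose and 7 fell, where 27% and 35.9% of all tested genes did, and 2 were lower beyond 3-fold, where 1.5% of tested genes were. These were Plat, from 103 ± 7.55 to 26.1 ± 2.28 FPKM (log2 difference -1.94, limma adjusted p = 3.63e-08), and thrombomodulin, Thbd, from 42.0 ± 2.72 to 9.75 ± 0.735 FPKM (-2.00, limma adjusted p = 2.55e-08). In Cre + NFIA Δpro#3 against Cre + NFIA, 8 rose and 2 fell, where 40.4% and 28.9% of all tested genes did, and 4 were higher beyond 3-fold against 2.33% of tested genes. They were Plat (2.34), Thbd (2.29), the scavenger receptor Lrp1 (1.75) and Plaur (1.61). Clec3b moved opposite to these in both comparisons.

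Other C-type lectin domain genes of stroma either fell or did not pass the test at day 0. Of 18 listed, 8 were tested, and in Cre + NFIA against Cre at day 0 3 fell, where 12.9% of all tested genes did. They were Colec12, a scavenger receptor (-0.74, limma adjusted p = 1.37e-06), Cd248, endosialin (-0.40, limma adjusted p = 0.0136), and Vcan, versican (-0.24, limma adjusted p = 0.0206). Clec3a, named in the same series, was under the filter. At day 7 7 of the 8 fell and 1 rose in Cre + NFIA against Cre, among a background of 35.9% and 27%, while Clec3b was higher. Vcan fell beyond 3-fold, from 89.3 ± 9.46 to 27.4 ± 1.51 FPKM.

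Of 12 other olfactomedin domain genes, 7 were tested. Olfml3, a secreted matrix protein, fell from 520 ± 43.0 to 285 ± 14.7 FPKM in Cre + NFIA against Cre at day 0 (log2 difference -0.86, limma adjusted p = 1.94e-05). The latrophilin Adgrl1 fell by 0.76 (limma adjusted p = 0.000264), and these were the 2 of 7 that passed, where 12.9% of all tested genes fell. At day 7 Olfml3 fell beyond 3-fold, from 241 ± 20 to 66.4 ± 4.46 FPKM (-1.84, limma adjusted p = 9.98e-09), and it was higher in the mutant than in Cre + NFIA by 2.31 (limma adjusted p = 1.60e-09). Myoc differed in the opposite direction to Olfml3 in each of these comparisons. Over the list 2 of 7 rose and 3 fell at day 7 in Cre + NFIA against Cre, where 27% and 35.9% of all tested genes did. In the mutant against Cre + NFIA 3 rose and 1 fell, where 40.4% and 28.9% of all tested genes did. Olfm1 (0.51, limma adjusted p = 9.55e-05) and Olfm2 (0.48, limma adjusted p = 0.00389), secreted olfactomedins, were the genes that rose, as Myoc did. Olfm2 was also the gene that fell in the mutant (-0.66, limma adjusted p = 0.000345).

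Among adipose fibroblast and precursor markers, 10 of 14 were tested. At day 0 in Cre + NFIA against Cre 3 rose and 3 fell, where 14.7% and 12.9% of all tested genes did. Cd34, a surface marker of stromal precursors, rose from 99.0 ± 11.8 to 229 ± 14.2 FPKM (log2 difference 1.21, limma adjusted p = 2.30e-05). Wnt2, a ligand of the Wnt family, fell from 4.37 ± 0.854 to 1.52 ± 0.292 FPKM (-1.09, limma adjusted p = 0.000285). F3, tissue factor, which marks a precursor subset, fell beyond 3-fold from 137 ± 4.35 to 41.7 ± 1.60 FPKM (-1.70, limma adjusted p = 3.94e-08), where 0.166% of tested genes were called lower. Dpp4, another precursor marker, was under the filter, with group means of at most 0.0385 FPKM. At day 7 all 10 fell in Cre + NFIA against Cre, and all 10 rose in the mutant against Cre + NFIA, among a background of 35.9% and 40.4%. With median-of-ratios scaling 9 passed in each, without Icam1 in the former and Cd34 in the latter.

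Glucocorticoid-responsive genes were listed because Myoc is one in the eye, and the day 0 cells had not yet received dexamethasone. All 13 were tested, and at day 0 3 rose and 4 fell in Cre + NFIA against Cre, where 14.7% and 12.9% of all tested genes did. Hsd11b1, which makes active glucocorticoid inside cells, rose from 1.55 ± 0.158 to 6.99 ± 1.00 FPKM (log2 difference 1.64, limma adjusted p = 1.69e-06). Fkbp5, a widely used glucocorticoid target, fell by 0.35 (limma adjusted p = 0.0136), and Sgk1 fell by 0.98 (limma adjusted p = 4.67e-06) on the log2 scale. Zbtb16, another target, was at 0.0389 FPKM in day 0 ctrl and 7.30 ± 0.532 FPKM in day 7 ctrl. This was a log2 rise of 3.00 (limma adjusted p = 2.93e-14). The list did not move as 1 between these days in ctrl, where 7 of the 13 rose and 5 fell. Sgk1 went from 65.4 to 12.7 FPKM. Among all tested genes 4157 rose and 4812 fell. Dexamethasone was in the first differentiation medium only, so the day 7 cells were no longer in it. Myoc had 5 reads in day 0 ctrl and 3 in day 7 ctrl, and its response to glucocorticoid was not tested. Hsd11b1 was higher beyond 3-fold in Cre + NFIA than in Cre at day 7 too, at 101 ± 6.53 against 12.1 ± 1.95 FPKM, where 2.13% of tested genes were called higher. The list was split in that comparison. Of the 13, 6 rose and 7 fell, where 27% and 35.9% of all tested genes did, and 1 was called in each direction. Sgk1 was lower, at 6.43 ± 0.285 FPKM in Cre + NFIA against 30.3 ± 3.79 FPKM in Cre.

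The genes beside the pair on the chromosome are given as a description of the region, since Clec3b and Myoc were chosen as high in the day 0 contrast. The gene nearest before Clec3b with a tested level, Exosc7, an exosome subunit, starts 37.7 kb away. It rose from 19.2 ± 2.29 to 28.9 ± 2.87 FPKM in Cre + NFIA against Cre at day 0 (log2 difference 0.57, SE 0.0907, limma adjusted p = 0.000913). In that contrast 14.7% of all tested genes passed as higher. Zdhhc3 (0.17, limma adjusted p = 0.132), Tmem158 (0.38, limma adjusted p = 0.122) and Lars2 (0.40, limma adjusted p = 0.178) did not pass. Around Myoc the nearest tested genes were Vamp4 (0.41, limma adjusted p = 0.0340) and Mettl13 (0.50, limma adjusted p = 0.00313), which passed, and Prrc2c (0.09, limma adjusted p = 0.283), which did not. Fmo1, a flavin monooxygenase whose start lies 227 kb from that of Myoc, passed at day 0 (0.33, limma adjusted p = 0.0446). At day 7 its levels were 3.25 ± 0.507 FPKM with the NFIA transgene and 0.413 ± 0.157 FPKM with Cre alone (1.59, limma adjusted p = 9.62e-07). Other neighbours fell at day 7, Zdhhc3 by 0.29 (limma adjusted p = 0.00073), Tmem158 by 0.75 (limma adjusted p = 0.00254), Vamp4 by 0.40 (limma adjusted p = 0.00308) and Prrc2c by 0.59 (limma adjusted p = 5.36e-05). Exosc7, Lars2 and Mettl13 did not pass there. Of all tested genes, 27% passed as higher and 35.9% as lower in Cre + NFIA against Cre at day 7. In Cre + NFIA Δpro#3 against Cre at day 0, Exosc7 also rose (0.30, limma adjusted p = 0.0413).

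**Figure D5:**
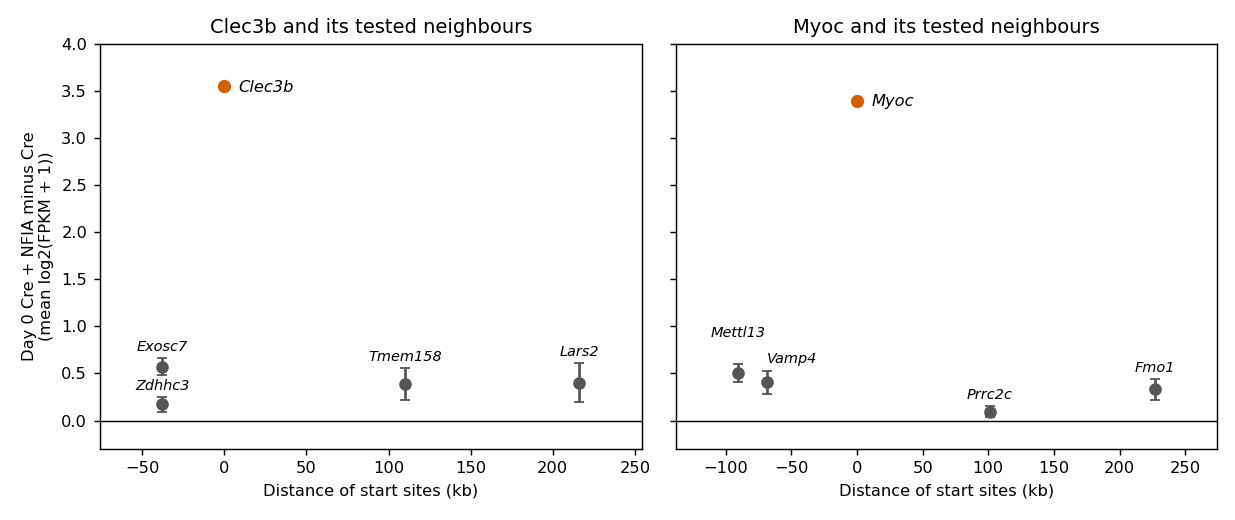
Difference of mean log2(FPKM + 1) between day 0 Cre + NFIA and Cre for Clec3b (left) and Myoc (right) and their tested neighbours (grey, error bars SE), by distance between start sites in kb, negative before the gene. The neighbours lie between 0.09 and 0.57, while Clec3b and Myoc lie at 3.55 and 3.40.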

How the data were processed

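Polyadenylated RNA was sequenced from 24 libraries (TruSeq Stranded). The deposited values are FPKM. The authors aligned reads to mm9 with STAR 2.5.3a, kept unique alignments, counted matching-strand reads per gene and scaled them by length and total. Every value was a whole multiple of the value of 1 read (100%, tolerance 0.05), so reads and totals (7.73 to 14.62 M) were recovered. Values were analysed as log2(FPKM + 1) for genes that reached an FPKM of 1 in 3 or more libraries, with limma 3.58.1 (R 4.3.3), a mean-variance trend, two-sided tests and Benjamini-Hochberg adjustment over 12640 genes. Comparisons within a day used its 12 libraries and others all 24. A gene was called at an adjusted p under 0.05 and at least 3-fold. "Rose" and "fell" in tested comparisons refer to the adjusted p. Genes named are Clec3b, Myoc, Nfia, members of 5 lists (by rule those called, at most 6 a list by size of change, not all of which are given), the 8 genes most like each, of which 1 is not reported here, and the 3 neighbours on each side. Other list genes with values were chosen after their values were seen. The genes and lists were chosen with earlier results of these data known. Protein sequences and a Clec3b promoter were not used here. The tests were tested on simulated data. Alternatives were pseudocounts, filters, scalings, the libraries in the model, a replicate block, no trend, limma voom on recovered reads and each library left out. Alternatives for the untested values of Clec3b and Myoc and for pooled read ratios were added after seeing the data.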

Additional observations from a re-analysis of the deposited data

Results flagged for a closer look

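The change from day 0 to day 7 went opposite ways between cell types. The day 0 and day 7 libraries of each group named here did not overlap, with day 7 lower in one group and higher in the others. For Clec3b the log2 difference of day 7 minus day 0 was -1.93 in Cre + NFIA, 0.60 in ctrl, 0.94 in libraries labelled Cre and 1.16 in Cre + NFIA Δpro#3. For Myoc it was -2.67 in Cre + NFIA and 0.19 in libraries labelled Cre. The latter rests on 0 reads at day 0 and 3, 1 and 6 reads at day 7. Their day 7 mean of 0.145 FPKM is near the 3-read floor of 0.136 FPKM, and the difference was 0.06 with quantile normalization. The Myoc libraries of ctrl and of Cre + NFIA Δpro#3 overlapped between days. Groups here have 3 libraries, and these differences between cell types were not tested, because day 0 Cre and Cre + NFIA libraries chose the genes.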

How the results depend on the processing

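Of 336 values of the tested comparisons under other settings, 331 kept their side of the adjusted p threshold, and no difference that passed changed sign. The rise of Clec3b from day 0 to day 7 in ctrl ranged from 0.49 to 0.69 with each library left out. The excess of the rise in Cre + NFIA Δpro#3 over that in ctrl, 0.56, ranged from 0.43 to 0.73, and without replicate 1 of day 7 Cre + NFIA Δpro#3 it passed (0.73, limma adjusted p = 0.039). It also passed with only the groups compared in the model (0.56, limma adjusted p = 0.0338) and with limma voom (0.69, limma adjusted p = 0.0387); the cause was not tested. Same-numbered libraries had mean correlations of -0.159 to 0.113 by comparison, so the numbers were not taken as pairs. With the replicate block that excess was 0.56 (limma adjusted p = 0.0783), and no result for Clec3b or Myoc changed sides of the threshold. A mean FPKM of at least 5 left no value for Myoc. The day 0 difference of Myoc between Cre + NFIA and Cre, 3.40, was 1.54 with a pseudocount of 5 and 8.41 with limma voom. Median-of-ratios scaling moved the median of all genes at day 7 from 0.0907 to -0.0214 in Cre against ctrl (Clec3b from -0.64 to -0.77), from 0.0965 to -0.00744 in Cre + NFIA Δpro#3 against Cre + NFIA (Clec3b from -0.57 to -0.68) and from 0.126 to -0.00243 in Cre + NFIA Δpro#3 against ctrl (Clec3b from -0.52 to -0.67), and in the excess above from 0.106 to -0.0122 (Clec3b from 0.56 to 0.43). Under it the genes passing split as 3398 higher and 3948 lower in day 7 Cre against ctrl (4563 and 2867 without it), 4264 and 3677 in Cre + NFIA against Cre (3418 and 4540), 3966 and 4187 in Cre + NFIA Δpro#3 against ctrl (5239 and 3214), and 3742 and 4062 in the excess (4559 and 3303). Called genes in day 7 Cre + NFIA against Cre split as 320 higher and 129 lower (269 and 190). Quantile normalization gave 2416 and 2622 passing in Cre + NFIA Δpro#3 between days (3101 and 2146). Genes called higher under median-of-ratios scaling were 17, not 30, in Cre against ctrl and 54, not 95, in Cre + NFIA Δpro#3 against ctrl. Counts of called list genes stayed within 1.5-fold in 461 of 510 alternatives. Equal counts were taken as the same, also where no gene was called under either setting, so this partly reflects lists without calls. Of the 8 genes most like Clec3b, 4 to 8 stayed under other settings, and of those most like Myoc 3 to 8. Depth limits Myoc, with 0 to 10 reads per group outside Cre + NFIA.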
